A study of Mus musculus with 3 samples.

Results

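The genes described here are those named Slc25, Timm or Tomm, which encode the carriers of the mitochondrial inner membrane and the machinery that brings proteins into mitochondria. They were chosen by gene symbol, among probe sets assigned to a single gene, and each gene was represented by the probe set that averaged highest over the muscles. This gave 55 genes of 12394 measured, of which 33 were Slc25, 15 Timm and 7 Tomm genes, read by 108 probe sets. The samples were 3 normal muscles, named muscle 1, muscle 2 and muscle 3 and hybridised to 1 array each, of mice labelled as littermate controls at an age of 3 to 6 weeks. The study used them as the normal reference for tumours derived from Pax7-expressing satellite cells, and tumour arrays were not analysed here. The labels give neither the muscle sampled, nor the alleles of the littermates, nor whether they received the 4-hydroxytamoxifen injected into the hindlimb of the mice that formed tumours. They also leave out whether 3 different mice were used, so SDs and p-values cover only how these samples differ, and that may be technical. There being only 1 group, nothing is contrasted, and the question the values answer is how high these genes lay in normal muscle and how closely the muscles agreed.

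Mitochondria make adenosine triphosphate (ATP) from substrates that must cross an inner membrane with low permeability. The carriers named Slc25 exchange nucleotides, phosphate, carboxylates, amino acids, acylcarnitines and metal ions across it. Almost all mitochondrial proteins are encoded in the nucleus and enter through the TOM complex of the outer membrane. From there the TIM23 complex takes proteins with a presequence towards the matrix, the TIM22 complex inserts carriers into the inner membrane, and small TIM proteins escort hydrophobic proteins between the membranes. Skeletal muscle depends on these steps because contraction spends ATP at a high rate.

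All levels are log2 RMA values as deposited, where a difference of 1 is a factor of 2. The median probe set was at 6.12 in every muscle, and having 3 arrays limits how precise any value is. A gene is called detected where it lay above a background level, the 95th percentile over 68 genes typical of organs other than muscle (99 probe sets), which was 6.77, 6.69 and 6.82 in muscles 1, 2 and 3. Of these 68 genes 3 were themselves above it in every muscle, and a gene below it may still be expressed. At the 90th percentile, 5.91, 5.97 and 6.12, Slc25a45 was also detected in all 3 muscles, and Timm9, Slc25a14, Slc25a17 and Slc25a23 in 2, all of which are called below background here. Because binding strength varies from probe set to probe set, different genes are not ranked against each other by level. The tissue label was checked against fibre genes, and all 10 listed genes of fast fibres and all 8 of slow fibres were detected in every muscle. Muscle 3 stood apart from the others in some control signals but not in all. In muscles 1, 2 and 3, 18S ribosomal RNA, read near its 5' end, was at 10.96, 11.23 and 11.69. The 3' minus 5' difference of the added bacterial control dap was 3.85, 3.60 and 2.63. For the mouse control genes this difference was 0.76, 0.77 and 0.61 in Actb. In Gapdh it was 0.33, 0.43 and 0.37, with muscle 3 between the others. The summed level of 10 leukocyte genes, as log2, was 11.57, 11.58 and 11.43, and that of 6 endothelial genes was 10.15, 10.15 and 10.00. Of these, 8 and 5 were detected in every muscle. Lowest in muscle 3 were 7 of the 8 leukocyte genes and 3 of the 5 endothelial genes, and 1 of each list was highest there. The part of these control signals and sums in the results was not tested. Family orders over the muscles were not computed without muscle 3, and other results without it are given where they differ.

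The starts of 4 members are shown as examples, a gene of each family that held a motif of a mitochondrial regulator and Slc25a20, the member whose spread between muscles was widest for its level. Of the 55 genes, 46 matched an entry in the RefSeq promoter table of build GRCm38.p6. The windows are the 250 bases before the start of the gene, 5' to 3' on the strand of the gene, with the capitals marking a motif found in the window. The motif is that of the factor NRF1 (GCGCA and GCGC with any 1 base between them) in Slc25a3 and Tomm20, and that of the ETS family, to which the mitochondrial regulator GABP belongs (CCGGAAGT), in Slc25a20 and Timm23. Both were searched on both strands, and no other motif searched overlaps them in these windows.
Slc25a3, chr10:91123968-91124217, minus strand: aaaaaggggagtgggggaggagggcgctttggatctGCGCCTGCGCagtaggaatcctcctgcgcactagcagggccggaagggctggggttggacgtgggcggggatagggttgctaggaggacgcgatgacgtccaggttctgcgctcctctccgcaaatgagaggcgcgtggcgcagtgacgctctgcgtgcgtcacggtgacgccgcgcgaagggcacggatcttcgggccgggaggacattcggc
Tomm20, chr8:126945922-126946171, minus strand: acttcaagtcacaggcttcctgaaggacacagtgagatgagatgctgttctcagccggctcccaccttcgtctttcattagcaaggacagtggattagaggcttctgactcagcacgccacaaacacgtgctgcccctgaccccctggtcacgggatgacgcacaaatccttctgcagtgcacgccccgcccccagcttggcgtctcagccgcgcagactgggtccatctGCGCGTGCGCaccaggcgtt
Timm23, chr14:32201892-32202141, minus strand: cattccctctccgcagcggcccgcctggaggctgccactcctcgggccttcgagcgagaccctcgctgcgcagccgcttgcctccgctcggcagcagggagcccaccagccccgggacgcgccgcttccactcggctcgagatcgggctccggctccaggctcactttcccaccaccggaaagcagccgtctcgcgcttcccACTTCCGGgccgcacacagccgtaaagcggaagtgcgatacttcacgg
Slc25a20, chr9:108661886-108662135, plus strand: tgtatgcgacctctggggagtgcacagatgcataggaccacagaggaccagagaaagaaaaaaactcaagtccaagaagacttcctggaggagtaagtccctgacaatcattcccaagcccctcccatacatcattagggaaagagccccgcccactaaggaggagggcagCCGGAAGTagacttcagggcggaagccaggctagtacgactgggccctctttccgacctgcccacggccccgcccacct

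Among the 46 matched members, 6 held the ETS motif (13%), namely Slc25a20, Timm23, Timm29, Timm8a2, Timmdc1 and Tomm70a, and 5.37% of the 9888 measured genes with an entry did. The NRF1 motif was in 2 members (4.35%) and in 7.63% of the measured genes. An ERR motif (TCAAGGTCA), the binding letters of the estrogen-related receptors that act on energy metabolism, was in Timm8b alone (2.17%), and in 0.334% of the measured genes. The E-box CACGTG was in 8 members (17.4%), against 9.19% of the measured genes, and TATAAA was in 1 member, Timm13 (2.17%), against 10.7%. Of the 8 members with the E-box, 3 were detected in no muscle and 5 in all 3. The CCAAT box was in 20 members (43.5%), against 39.8%. Members were detected more often than other genes, so shares among genes detected in all 3 muscles follow, for 34 members against 4810 genes. They were 14.7% against 7.32% for ETS, 5.88% against 11% for NRF1 and 2.94% against 0.27% for ERR. For the E-box they were 14.7% against 10.8%, for TATAAA 2.94% against 7.86% and for the CCAAT box 41.2% against 40.8%. With so few genes behind most motifs these shares are descriptions, and a match is not evidence of binding. The median GC content of the windows was 58.6% in the members and 58.4% in the measured genes.

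Most of the carriers and import genes were above background. In all 3 muscles 41 of 55 were detected (74.5%), against 47.3% of all genes, and 11 were detected in none. All 7 Tomm genes, 13 of 15 Timm genes and 21 of 33 Slc25 genes were among the 41. Over 229 other solute carriers the share was 29.3%, over 90 genes of oxidative phosphorylation 94.4%, and all 74 genes of the mitochondrial ribosome were detected. These shares were not tested against each other. The 41 detected members had means from 6.94 to 13.33.

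**Figure D1:**
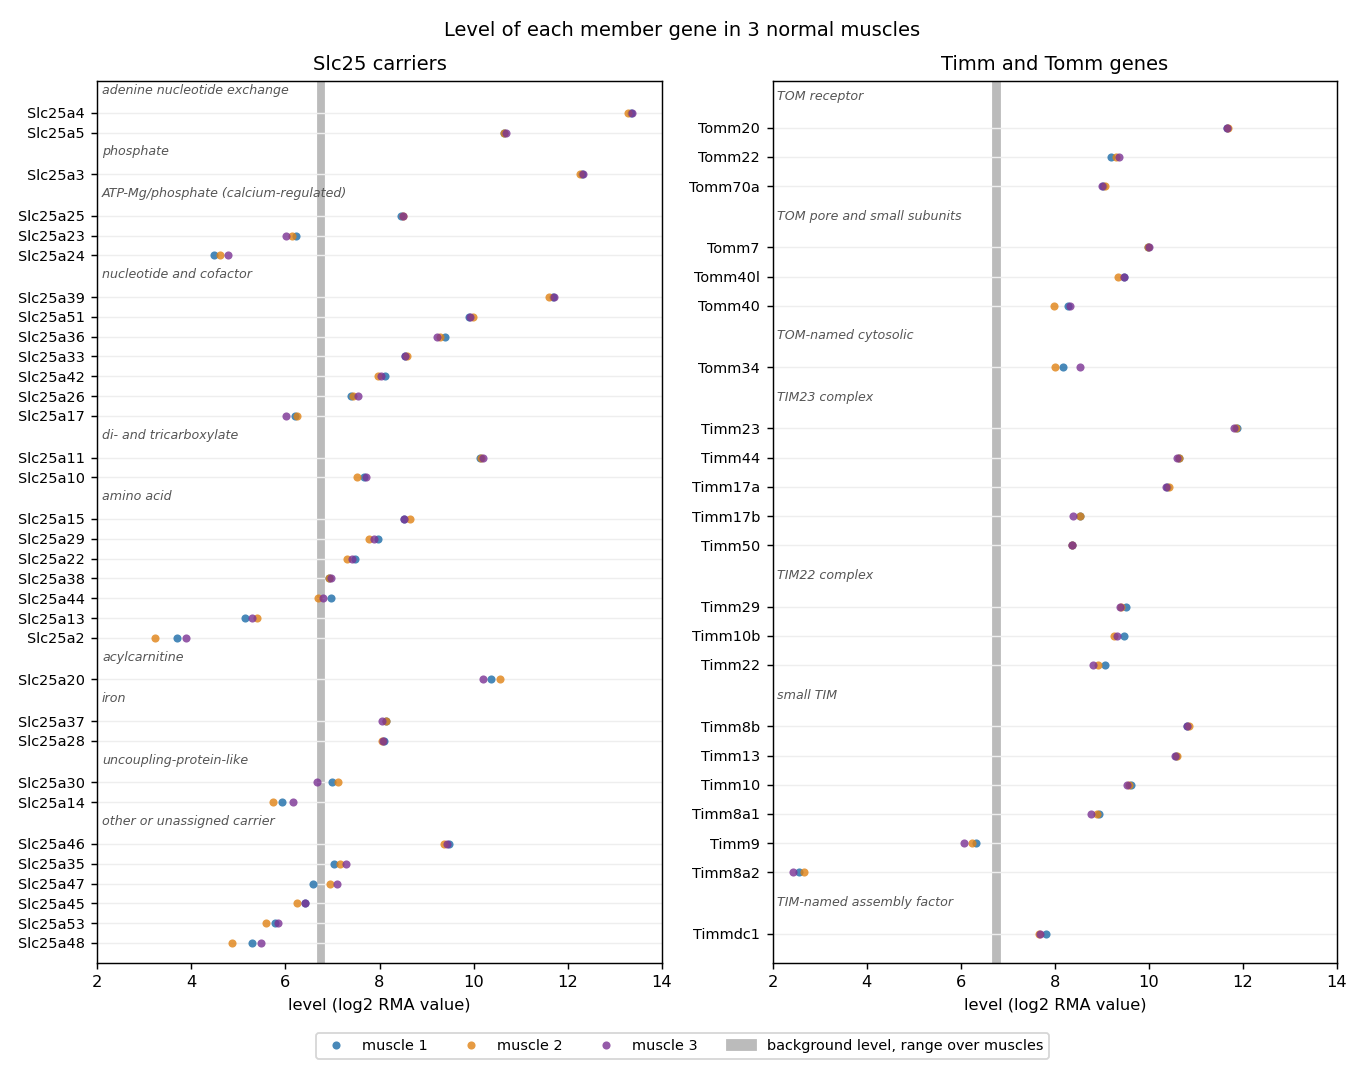
Level of each of the 55 genes in muscle 1, muscle 2 and muscle 3, in log2 RMA values on the horizontal axis, with genes grouped by role down the page and the grey band marking the range of the background level over the muscles. The 3 points of most genes above the band overlap, while Slc25a30 and Slc25a47 straddle it and the lower points of Slc25a44 lie within it.

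The adenine nucleotide carriers exchange matrix ATP for cytosolic ADP, and both measured isoforms were detected. Slc25a4 (ANT1), the isoform of heart and skeletal muscle, was at 13.34, 13.29 and 13.36 in muscles 1, 2 and 3, a mean of 13.33 ± 0.04 (SD, n = 3). Slc25a5 (ANT2), found in many tissues, was at 10.65, 10.65 and 10.70, a mean of 10.67 ± 0.03. The phosphate carrier Slc25a3, which supplies phosphate for ATP synthesis, was at 12.30, 12.27 and 12.33. In each of these 3 genes the highest value was that of muscle 3, but the range between muscles was at most 0.072. The probe sets taken for all 3 are of the class of several transcripts that 1 alternative left out. Outside this class Slc25a4 averaged 7.14 and Slc25a5 averaged 7.09, in 1 probe set each, and Slc25a3 had no probe set. Which transcripts gave the higher signals was not tested. The highest value on any array was 13.7, so Slc25a4 lay close to the top of the scale, and saturation was not tested.

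Of the 3 measured calcium-regulated carriers that exchange ATP-Mg for phosphate, only Slc25a25 was detected, at 8.46, 8.49 and 8.50. Slc25a23 and Slc25a24 were below background in every muscle, with means of 6.13 ± 0.11 and 4.63 ± 0.14. Thus 1 of the 3 isoforms gave a signal above background, although a probe set that binds weakly would give the same picture.

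Carriers of other nucleotides and of cofactors were detected in 6 of 7 cases. Slc25a42, which transports coenzyme A, was at 8.11, 7.98 and 8.03. The NAD carrier Slc25a51 and the pyrimidine nucleotide carriers Slc25a36 and Slc25a33 had means of 9.94 ± 0.05, 9.30 ± 0.09 and 8.55 ± 0.02. Slc25a39, needed for glutathione import, was at 11.66 ± 0.05, and Slc25a26, which carries S-adenosylmethionine, at 7.45 ± 0.07. The exception was Slc25a17, a carrier of peroxisomes rather than mitochondria, at 6.16 ± 0.13.

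Carboxylate and amino acid carriers were detected in part. The oxoglutarate and malate carrier Slc25a11, a part of the malate-aspartate shuttle, was at 10.14, 10.16 and 10.21, and the dicarboxylate carrier Slc25a10 averaged 7.63 ± 0.09. Slc25a13 (citrin), an aspartate and glutamate carrier of the same shuttle known for its role in liver, was below background at 5.15, 5.39 and 5.29. Its relative Slc25a12 and the citrate carrier Slc25a1 are not analysed here. The ornithine carrier Slc25a15 was at 8.56 ± 0.07, Slc25a29, which carries basic amino acids, at 7.87 ± 0.09, the glutamate carrier Slc25a22 at 7.40 ± 0.09, and the glycine carrier Slc25a38, needed for haem synthesis, at 6.94 ± 0.03. The ornithine carrier Slc25a2 was at 3.60 ± 0.34. Slc25a44, a carrier of branched-chain amino acids, was at 6.97, 6.70 and 6.80, above background in muscles 1 and 2 only. Muscle 3 was higher than muscle 2 but missed its own background level of 6.82, while muscle 2 narrowly passed 6.69.

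Both mitoferrins, which bring iron into mitochondria, were detected with little spread. Slc25a28 (mitoferrin 2) was at 8.09, 8.06 and 8.07, and Slc25a37 (mitoferrin 1), which is abundant in erythroid cells, at 8.15, 8.15 and 8.06. Of 5 measured genes of the erythroid list, the transferrin receptor Tfrc, which muscle expresses as well, was detected, and Hba-a1, Alas2, Klf1 and Rhag were below background in every muscle. The summed level of this list, as log2, was between 11.50 and 11.53.

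Slc25a20, which exchanges acylcarnitine for carnitine and so admits fatty acids to oxidation, was at 10.38, 10.57 and 10.20, a mean of 10.38 ± 0.19 and a 1.29-fold span. Muscle 2 was the highest and muscle 3 the lowest. Its other probe set, at 9.30, 9.20 and 9.17, was highest in muscle 1 instead, and its range of 0.13 was smaller. The spread of this gene thus rests on 1 of its 2 probe sets.

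Of the remaining carriers, Slc25a46 was well above background and the others lay near or below it. The uncoupling-protein-like Slc25a30 was at 6.99, 7.12 and 6.68, above background in muscles 1 and 2, and none of its other 4 probe sets reached background in any muscle, with means from 2.63 to 6.49. Slc25a47, a carrier known from liver, was at 6.59, 6.94 and 7.09, above background in muscles 2 and 3. Slc25a35, whose substrate is unsettled, was at 7.02, 7.15 and 7.30. Slc25a46, which sits in the outer membrane and acts in mitochondrial shape, was at 9.43 ± 0.05. Slc25a14, Slc25a45, Slc25a48 and Slc25a53 were below background in all muscles, with means from 5.21 for Slc25a48 to 6.36 for Slc25a45.

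Every measured subunit of the TOM complex was detected in every muscle. The presequence receptor Tomm20 was at 11.66, 11.68 and 11.65, the central receptor Tomm22 at 9.19, 9.30 and 9.37, and Tomm70a, the receptor for carriers and other hydrophobic proteins, at 9.02, 9.07 and 8.99. Tomm20 and Tomm70a were highest in muscle 2 and lowest in muscle 3, while Tomm22 was highest in muscle 3. The other probe set of Tomm22, at 9.22, 9.26 and 8.94, was lowest in muscle 3 instead, so the direction of Tomm22 there rests on the probe set chosen. For Tomm20, whose range was 0.027, the other probe sets were divided. That at 7.36, 7.33 and 7.42 was highest in muscle 3, and that at 10.38, 10.41 and 10.29 was lowest there. The SDs of the 3 receptors were 0.01, 0.09 and 0.04. The pore gene Tomm40 was at 8.28, 7.97 and 8.33, lowest in muscle 2 by 0.33 against the mean of the other muscles, and its relative Tomm40l at 9.43 ± 0.07 was lowest in the same muscle by 0.12. The small subunit Tomm7, which affects the stability of the complex, was at 9.98, 9.98 and 10.00.

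Tomm34 is named as a TOM protein but is a cytosolic partner of Hsp70 and Hsp90 chaperones. It was at 8.17, 8.01 and 8.54, a mean of 8.24 ± 0.28, and its 1.45-fold span was the widest among the 44 members detected in at least 1 muscle. Muscle 3 lay 0.46 above the mean of the other muscles. It has a single probe set, so no second reading of the same transcript was to hand.

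All 5 measured genes of the TIM23 complex were detected. The channel subunit Timm23 was at 11.88, 11.85 and 11.80, and the receptor Timm50 at 8.36 in each muscle, with a range of 0.0077. The subunit pair Timm17a and Timm17b, alternative partners of Timm23, were at 10.38, 10.43 and 10.36 and at 8.53, 8.53 and 8.40. Timm44, which tethers the import motor to the channel, was at 10.64, 10.63 and 10.59. The differences were small throughout, with no range in this complex above 0.133.

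In the carrier pathway the 3 genes of the TIM22 complex were detected, with the insertase subunit Timm22 at 9.06, 8.93 and 8.82, Timm29 at 9.43 ± 0.07 and Timm10b at 9.35 ± 0.11. Of 6 small TIM genes, 4 were detected. Timm10 was at 9.61, 9.57 and 9.54, Timm13 at 10.58, 10.59 and 10.56, Timm8b at 10.81, 10.85 and 10.80 and Timm8a1 at 8.93, 8.89 and 8.76. Timm9, the obligate partner of Timm10 in a hexamer, was below background at 6.31, 6.23 and 6.08, and its other probe set averaged 4.09. Timm8a2, a relative of Timm8a1, was at 2.56 ± 0.11. Levels of different probe sets cannot be compared, so the values do not show that less Timm9 than Timm10 RNA was present. Timmdc1, which assembles respiratory complex I despite its name, was at 7.71 ± 0.08.

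Genes that act with these members were also almost all detected. Of 38 measured genes of a list of other import, assembly, protease and carrier-like genes, 37 were above background in every muscle, against 47.3% of all genes. The outer membrane assembly gene Samm50 was at 11.31 ± 0.03, the import motor chaperone Hspa9 at 10.72 ± 0.02 and the outer membrane pore Vdac1 at 12.40 ± 0.06. The exception was Sfxn2, at 6.25. The uncoupling carrier Ucp1, a defining gene of brown fat, was detected at 9.42 ± 0.04. The list of white and brown adipocyte genes had 7 of 9 members detected in every muscle, with Lep and Elovl3 below background, and its summed level, as log2, was 13.74, 13.75 and 13.70 in muscles 1, 2 and 3. Cox8b, at 12.50 ± 0.04, was the highest of the 9 and weighs most in this sum. Cox8b is also among the oxidative phosphorylation genes counted above, so the sum does not measure adipocyte content alone. How much of each carrier signal came from fibres or from other cells was not tested, and in whole tissue fewer cells of a type and less RNA per cell cannot be told apart.

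The muscles agreed closely on these genes. The median SD over the 41 members detected in all muscles was 0.0529, against 0.069 over all 5860 such genes. A range under 0.1 was found in 20 of the 41, but this was not counted over all genes and is a description only. Other mitochondrial genes agreed as closely or more so, with a median SD of 0.0529 for the mitochondrial ribosome and 0.0329 for oxidative phosphorylation. The members also lay higher, with a median level of 9.29 against 8.48 over all such genes, and the SD that limma fitted fell with level, being 0.14 at the level of Slc25a47 and 0.0503 at that of Slc25a20. No member reached a range of 1.5-fold, which 1.35% of the genes detected in at least 1 muscle did. Of the 41 members, 27 had an SD below the one limma fitted at their level, beside 59.5% of all such genes.

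**Figure D2:**
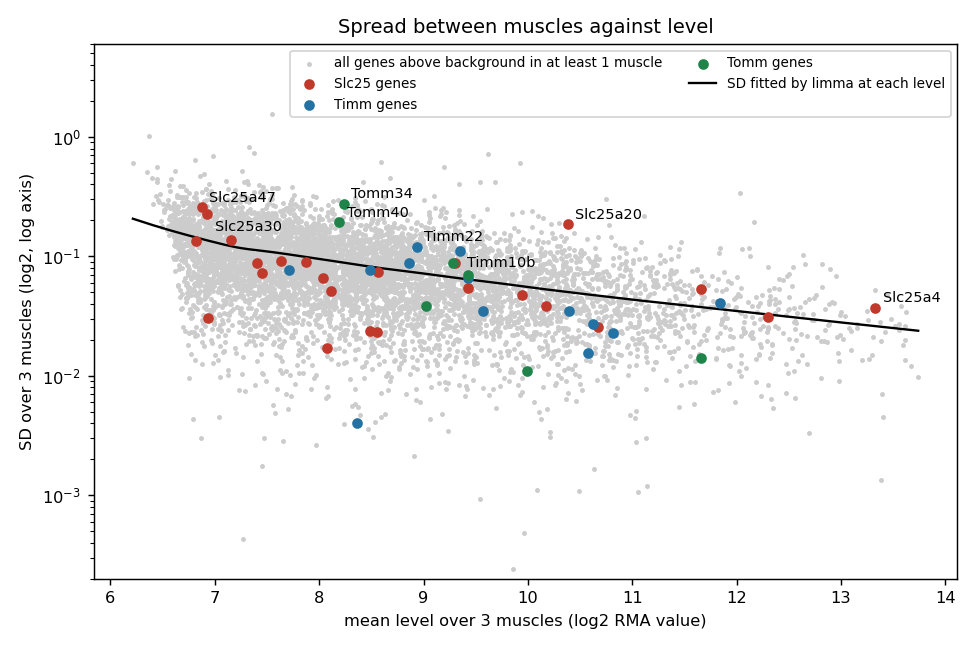
SD over the 3 muscles, on a log axis, against the mean level in log2 RMA values, for all 6373 genes detected in at least 1 muscle (grey) and for the Slc25, Timm and Tomm genes (coloured), with the SD that limma fitted at each level as a line. Slc25a20 and Tomm34 lie farthest above the line among the members, and Timm50 farthest below.

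Excess spread was tested with a one-sided F test over all 6373 genes detected in at least 1 muscle. It sets the variance of a gene against the prior variance that limma fitted for genes of like level. Of the 44 members tested 0 were called at an adjusted p of 0.05, against 4 genes in all (0.0628%). At an unadjusted p under 0.05 there were 2 members, Slc25a20 and Tomm34, and 302 genes in all (4.74%). The unadjusted p of this F test on limma's prior was 0.00533 for Slc25a20, whose SD was 3.68 times the fitted one. For Tomm34 it was 0.012, at 3.12 times, and the adjusted p-values were 0.885 and 0.903. For Tomm40 the SD was 2.14 times the fitted one, with an unadjusted p of 0.0596 in the F test on limma's prior. The unadjusted p of Slc25a20 was no longer under 0.05 without muscle 2 (0.0571), with probe sets averaged (0.0971) or without the trend of the prior on level (0.0955), and that of Tomm34 without muscle 3 (0.202).

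The 3 families were ordered differently over the muscles, by small amounts. Of 13 detected Timm genes 10 were lowest in muscle 3, where 49% of all detected genes were lowest. Their median departure in muscle 3, the level there minus the mean of the other muscles, was -0.0466, beside -0.0357 over all detected genes. Mitochondrial ribosome genes and listed partner genes leaned the same way, so this order is not particular to Timm genes. Lowest in muscle 3 were 63.5% and 59.5% of those detected, with median departures there of -0.0402 and -0.0464. Oxidative phosphorylation genes lay near all genes, with 52.9% lowest in muscle 3 and a less negative median of -0.0252. Of the detected other solute carriers 38.8% were lowest there, with a median of 0.00027. Of the 21 Slc25 genes 11 were lowest in muscle 2, where 29.1% of all detected genes were lowest. In muscle 3, 5 of the Slc25 genes were lowest and 10 were highest, and of the 7 Tomm genes 4 were highest, where 22.7% of all genes were. Of the detected other solute carriers, 35.8% were lowest in muscle 2 and 35.8% were highest in muscle 3. The Slc25 and Tomm median departures in muscle 3 were 0.0273 and 0.0535. These orders depended on the processing. Median centring left 9 of 13 Timm genes lowest in muscle 3 and 10 of 21 Slc25 genes highest there, whereas after quantile normalization of the 3 columns 5 of 13 Timm genes were lowest in muscle 3 and 6 in muscle 2, the Timm median was -0.0195 and the Slc25 and Tomm medians were 0.0606 and 0.0905. The Slc25 median in muscle 3 was 0.00568 with probe sets averaged, 0.00029 without probe sets of several transcripts, and -0.00251 with the background at its 99th percentile, so it has no settled direction. One of the 4 Tomm genes highest in muscle 3 is Tomm22, whose probe sets disagree. Over all 41 members the median departures were 0.0156, -0.0078 and -0.0121 in muscles 1, 2 and 3. Muscle 3 also had the highest 18S signal and the lowest dap difference, and the lowest leukocyte and endothelial sums, and their part in these orders was not tested.

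**Figure D3:**
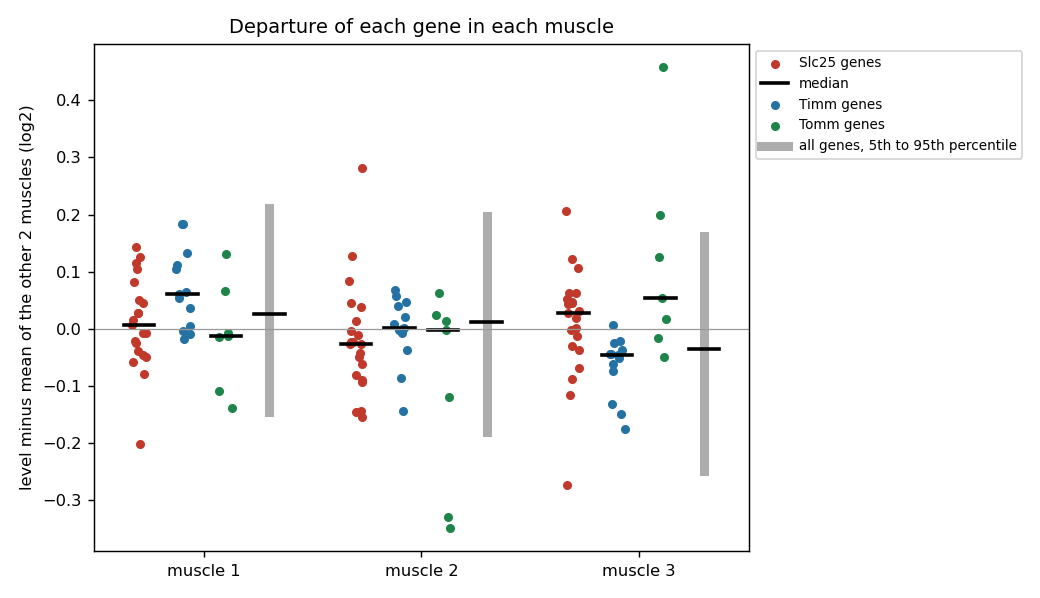
Departure of each detected Slc25, Timm and Tomm gene in each muscle, in log2 units, with black bars for medians and grey bars for the 5th to 95th percentile of all 5860 detected genes. The Timm median in muscle 3 is -0.0466 and the Tomm median 0.0535, and Tomm34 and Slc25a20 are the outermost points there.

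Genes read by several probe sets gave a second reading of the same gene. Of the 55 members 26 had more than 1 probe set. The means of the probe sets of one gene, which also differ in binding strength, spanned from 0.029 for Timm17b to 6.19 for Slc25a4. For Slc25a4 the means were 13.33, 13.09, 12.60 and 7.14, and the lowest of these was the only one with a range above 0.5, at 7.42, 7.12 and 6.89. The 8 probe sets of Slc25a5 had means from 5.97 to 10.67, and 6 of them were detected in every muscle. All 5 probe sets of Tomm20 were detected, with means from 7.37 to 11.66. The members detected in all muscles had 44 further probe sets, of which 31 were also detected in all muscles and 12 in none. Of these 31, 19 departed in muscle 3 in the same direction as the gene level. Of the 6 that belong to Timm genes, 3 were lowest in muscle 3.

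**Figure D4:**
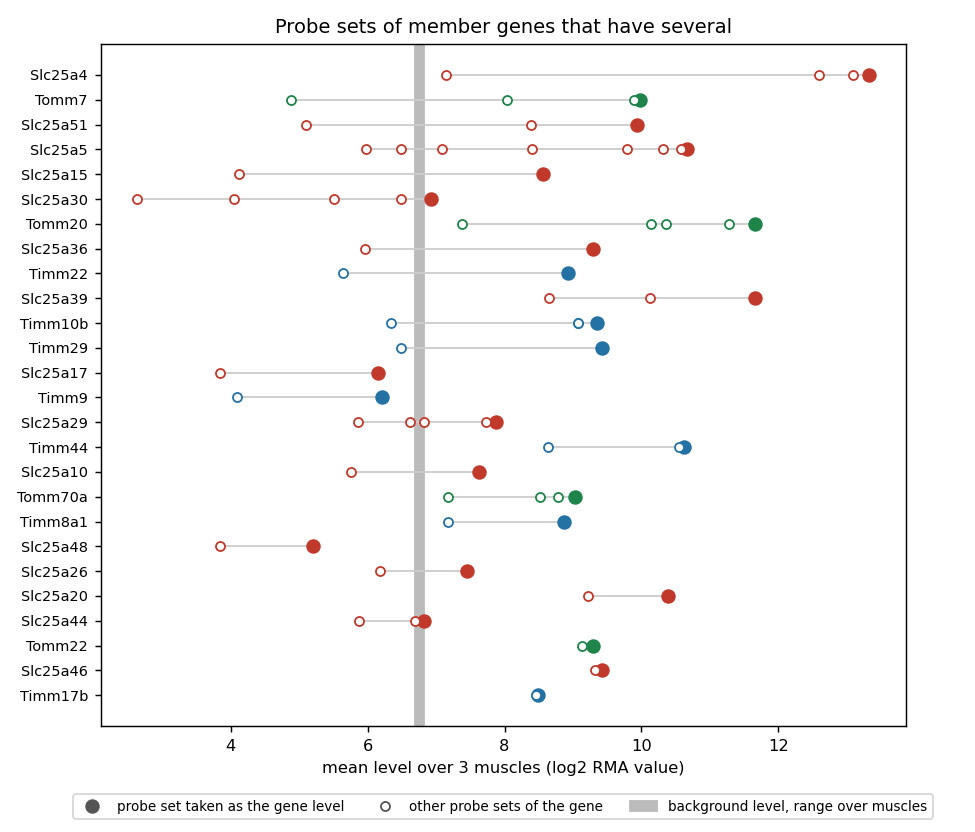
Mean level over the 3 muscles, in log2 RMA values, of each probe set of the 26 members with several, with filled points for the probe set taken as the gene level, open points for the others and a grey band for the background level. The span is widest for Slc25a4, 6.19, and narrowest for Timm17b, 0.029.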

How the data were processed

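Expression was measured by 3' microarray in 3 normal muscles. Total RNA was extracted with Trizol and 500 ng was labelled with biotin, per the labels' protocols. The values the authors deposited are on a log2 scale. RMA, named in the submitters' processing notes, corrects background, normalizes by quantiles and summarises probes. Neither the RMA version nor the set of arrays it ran on was given in the sources used here. A shift that most genes share is hidden by normalizing quantiles. Of 22690 probe sets, 20393 had 1 gene in the platform annotation, 691 several and 1606 none, and the last 2 classes were left out. All 55 member symbols matched RefSeq by Entrez number, and 0 changed. No coordinates of probe sets are given, and depth does not apply to arrays.

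With 1 group, no contrast was tested. For each gene the mean, SD and range over 3 muscles were taken. Variances of the 6373 genes above background in 1 muscle or more were set against limma's prior (limma 3.58.1, R 4.3.3), robust and with a trend on level. A one-sided F was computed from this prior, with its largest degrees of freedom, 6.25, used for every gene. The p-values were adjusted by Benjamini-Hochberg over all 6373 genes. The test was checked on simulated data. Python 3.11.15, numpy 2.4.6, pandas 2.3.3 and matplotlib 3.10.9 did the rest. Members and lists were chosen with earlier results of these data known. Values in each muscle are given for a written list of members, the 8 widest ranges and members detected in 1 or 2 muscles, and of other genes at most 6 are named with values. The example promoters, motifs and other probe sets were chosen after values were seen. Alternatives were other scalings, probe set rules, background levels, prior settings, range limits and leaving out each muscle.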

Additional observations from a re-analysis of the deposited data

Results flagged for a closer look

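Probe sets assigned to a Tomm gene together with another gene were left out of the gene levels but carried signal above background in every muscle. The probe set shared by Tomm5, a small TOM subunit, and Gm8069 had a mean of 10.23. The 2 probe sets shared by Tomm6, another small subunit, and Prickle4 had means of 9.84 and 11.41. Which of the paired genes gave the signal was not tested.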

How the results depend on the processing

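Of 69 values under alternatives 54 moved by less than the spread of the median member level between muscles, 0.00994, or, for counts, by less than a factor of 1.5. Counts that were 0 and stayed 0 are among the 54. Departures without 1 muscle come in pairs of opposite sign that are both counted. The share is therefore no measure of how stable the results are. No member was called by the F test on limma's prior under any alternative run, with 1 to 3 members at an unadjusted p under 0.05. For Slc25a20 the unadjusted p ran from 0.00282 to 0.0971 and for Tomm34 from 0.00448 to 0.202. The number of members detected in all muscles used, 41, was 34 and 45 with the background at the 99th and 90th percentile. It was 42, 41 and 43 without muscle 1, 2 and 3. Without probe sets of several transcripts it was 33, but members read only by these, such as Slc25a3, Timm13 and Tomm40, then drop out altogether. In that setting 38 members were among 5920 genes detected in at least 1 muscle, beside 44 among 6373. At the 99th and 90th percentile they were 37 among 4410 and 49 among 7689. The 90th percentile was chosen after seeing the data. Without the filter 2 members, Slc25a2 and Slc25a48, both below background, reached a range of 1.5-fold. The count was 0 without any 1 muscle. The median SD of 0.0529 became 0.0387 with probe sets averaged, 0.0695 without probe sets of several transcripts, 0.0765 without the filter and 0.0656 at the 90th percentile. It became 0.0495, 0.0375 and 0.0365 without muscle 1, 2 and 3. The median departure in muscle 1 became -0.00709 without probe sets of several transcripts, 0.0268 without the filter and 0.0267 at the 90th percentile. It was 0.0155 without muscle 2 and 0.0185 without muscle 3. In muscle 2 the median departure was -0.0293 after quantile normalization, -0.0141 without muscle 1 and -0.0185 without muscle 3. In muscle 3 it was 0.0317 after quantile normalization, -0.0237 at the 99th percentile, 0.0141 without muscle 1 and -0.0155 without muscle 2. In all, 4 of 27 departures under alternatives had another sign, so no direction is drawn from them, and the cause was not tested. No paired analysis was possible because there is a single group.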
